A study of Mus musculus with 8 samples.

Results

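The circadian clock genes analysed here are the 10 genes Per1, Per2, Cry1, Cry2, Clock, Arntl, Nr1d1, Nr1d2, Dbp and Bhlhe40, chosen by name and found in the count files by the Ensembl identifier that the GENCODE M21 annotation gives each symbol. All 10 were found among the 55414 genes listed, and all 10 passed the filter on low counts that left 16778 genes for testing. Their RNA was measured by RNAseq of total RNA depleted of ribosomal RNA in neutrophils sorted from the spleen, 1 library per mouse. The groups were 4 FVB-WT mice of genotype WT and 4 FVB-Cxcr2-/- mice of genotype Cxcr2-/-. Mice of both groups were 10 weeks old, kept as SOPF (specific and opportunistic pathogen free) and untreated as far as the labels say. Cxcr2 is the receptor for the chemokines that draw neutrophils out of the bone marrow. The knockout is a germline one, so every cell of those mice lacks the receptor and not the neutrophils alone. The sort took CD45+ CD11b+ Ly6G+ F4/80- cells, and the hour at which spleens were collected is not given in the sources used here. A single collection cannot tell a shift of phase from a change of level, so the values below describe levels at collection.

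The circadian clock is a feedback loop of transcription. Clock and Arntl (also called Bmal1) form a dimer that binds E-boxes and turns on the Per and Cry genes, whose proteins come back to silence the dimer. The same dimer turns on Nr1d1 and Nr1d2, the REV-ERB receptors, which repress Arntl and so form a further loop, as well as Dbp, an activator at D-boxes, and Bhlhe40 (also called Dec1), a repressor that competes for E-boxes. In neutrophils the clock is known for the daily ageing of the circulating cells, in which Arntl acts on the Cxcr2 ligand Cxcl2, and Per1 is also known as a gene that glucocorticoids and acute signalling raise within minutes to hours.

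The letters through which the loop is known to act can be read in the promoters. RefSeq promoter windows of GRCm38.p6, from 250 bases before a transcript's start to 50 from it, were matched to 8 of the 10 clock genes (12 windows, since some genes have several starts), and there was none for Per2 and Bhlhe40. The 250 bases before the start are shown for the 2 clock genes of the Per and Cry families whose RNA was lower in Cxcr2-/- neutrophils and have a window (Per1 and Cry2), for Cry1, whose RNA did not pass the test, and for Ciart, a repressor of the Clock-Arntl dimer that fell further than any other partner gene tested. Capitals mark the motifs found, on either strand: the E-box CACGTG, the E-prime box CACGTT (which reads AACGTG on the other strand) and the D-box TTATGCAA. The windows are chr11:69098699-69098948 (plus strand) for Per1, chr10:85185055-85185304 (minus strand) for Cry1, chr2:92434070-92434319 (minus strand) for Cry2 and chr3:95882229-95882478 (minus strand) for Ciart, each read 5′ to 3′ along the gene's own strand.
Per1: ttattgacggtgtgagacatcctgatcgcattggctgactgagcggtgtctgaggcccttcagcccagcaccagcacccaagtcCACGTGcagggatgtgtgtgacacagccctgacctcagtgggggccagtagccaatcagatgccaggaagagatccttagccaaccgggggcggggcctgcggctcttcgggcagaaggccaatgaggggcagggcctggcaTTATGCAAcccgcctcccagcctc
Cry1: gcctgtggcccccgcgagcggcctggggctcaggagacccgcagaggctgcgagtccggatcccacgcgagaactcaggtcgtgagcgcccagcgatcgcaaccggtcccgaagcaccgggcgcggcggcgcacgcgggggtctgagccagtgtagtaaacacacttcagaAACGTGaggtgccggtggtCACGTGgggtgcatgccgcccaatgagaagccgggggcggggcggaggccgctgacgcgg
Cry2: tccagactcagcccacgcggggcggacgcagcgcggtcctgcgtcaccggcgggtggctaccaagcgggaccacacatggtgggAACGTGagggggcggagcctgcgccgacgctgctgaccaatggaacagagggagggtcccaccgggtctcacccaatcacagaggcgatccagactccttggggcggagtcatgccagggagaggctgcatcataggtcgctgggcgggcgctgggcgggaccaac
Ciart: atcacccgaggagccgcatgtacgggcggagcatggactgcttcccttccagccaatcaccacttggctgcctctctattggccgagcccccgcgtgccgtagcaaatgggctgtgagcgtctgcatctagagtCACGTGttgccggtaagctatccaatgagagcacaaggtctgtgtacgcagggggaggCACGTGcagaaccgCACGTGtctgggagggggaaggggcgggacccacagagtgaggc
In this Per1 window an E-box began 166 bases before the start and a D-box 24 bases before it, and the window of a further Per1 start had none of the motifs searched. Cry1 had an E-box that began 60 bases before the start and an E-prime box 79 bases before it, Cry2 had an E-prime box 166 bases before it, and Ciart had 3 E-boxes, 116, 58 and 44 bases before it. Of the other clock genes, Nr1d1 had an E-prime box 28 bases before its start and one of the Arntl windows had the REV-ERB and ROR site TAGGTCA beginning at base 31 from its start, while the windows of Clock, Nr1d2 and Dbp had none of the motifs. Among all 32851 windows of the table, both strands read, 7.15% held CACGTG, 4.68% held CACGTT, 0.743% held TTATGCAA and 2.61% held TAGGTCA. The other motifs searched were TTATGTAA (0.938% of windows), the cyclic AMP response element TGACGTCA (1.79%), the RORE TGGGTCA (3.98%) and the palindromic glucocorticoid response element, found in 0.00913%, none of them in a window of the clock genes. The E-box and the cyclic AMP response element read the same on both strands, and none of the matches found overlapped another. A match describes letters only. Of the 3 genes shown with an E-box, Per1 and Ciart were lower in Cxcr2-/- neutrophils and Cry1 did not pass the test.

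Counts on genes came to between 34220182 and 46233555 in a WT library and to between 37549648 and 43789253 in a Cxcr2-/- library. Expression is given as CPM, counts of a gene relative to the library size after TMM scaling, and the log2 fold change of Cxcr2-/- relative to WT came from edgeR's quasi-likelihood test, with p adjusted by Benjamini-Hochberg over all genes tested. Cxcr2, the deleted gene, was at 1956 ± 221 CPM in the WT and 17.1 ± 3.46 CPM in the Cxcr2-/- libraries (mean ± SD, n = 4), as the genotype labels have it. Neutrophil markers summed to 28530 to 41482 CPM in the WT mice and 63903 to 77448 CPM in the Cxcr2-/- libraries, a sum carried by S100a8 and S100a9. Of the 7 markers 5 were higher, Itgam did not pass and Csf3r, the G-CSF receptor gene, fell from 6960 ± 462 to 3334 ± 147 CPM (log2 fold change -1.06, edgeR adjusted p = 1.11e-05). Among all genes tested 23.7% were higher and 21% lower. In bulk libraries fewer cells of a type and less RNA of a gene per cell cannot be told apart, and that holds for every value below. The share of counted pairs that met no gene was 31.4% to 41.5% in WT and 26.7% to 31.9% in Cxcr2-/- libraries, a measure that moved with the genotype.

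Of the 10 clock genes, 5 passed an adjusted p of 0.05 as lower in Cxcr2-/- neutrophils, Per1, Per2, Cry2, Dbp and Bhlhe40, and 0 passed as higher (edgeR). The same 0 was found at an unadjusted p of 0.05 and with DESeq2. The background is broad, because 44.7% of all genes tested passed in either direction, 21% as lower and 23.7% as higher. Of the 10 genes, 9 had a negative log2 fold change, with a median of -0.45 against 0.01 over all genes tested. A fall of at least 1.5-fold was reached by 3 of them, Per1, Per2 and Dbp, against 15.7% of all genes tested. In 5 of the 10, the same 5 that passed, every Cxcr2-/- mouse lay below every WT mouse, against 19.1% of all genes tested. The 10 genes were chosen with earlier results of these data known, so these comparisons describe the list and do not test it.

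**Figure D1:**
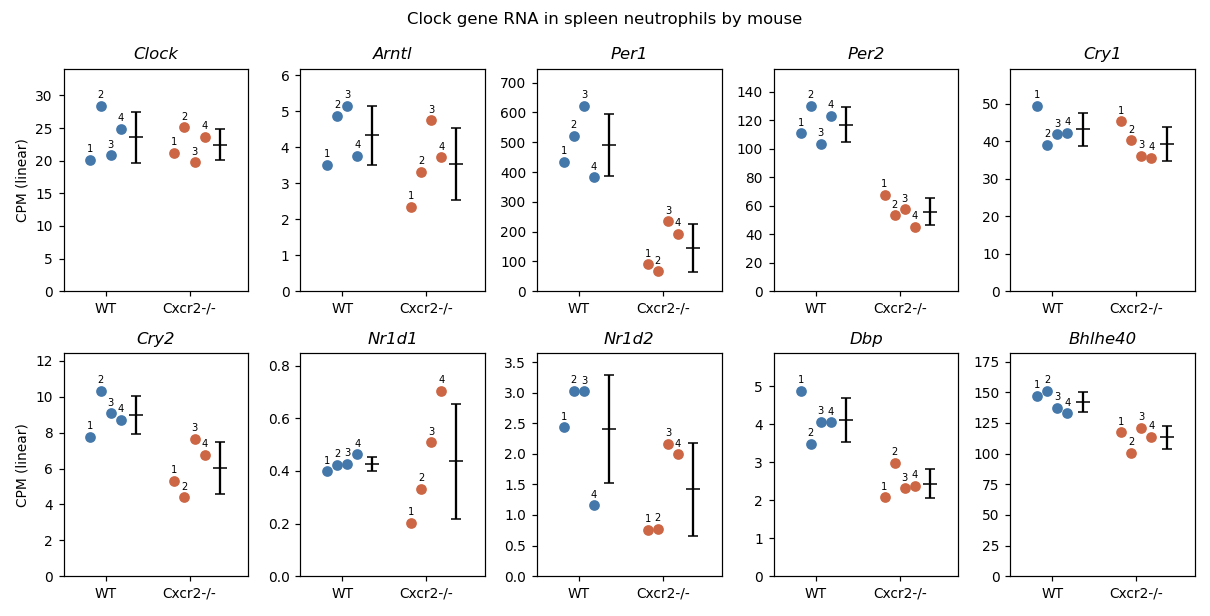
CPM (linear axis from 0) of the 10 clock genes in each mouse, WT in blue and Cxcr2-/- in orange, with the replicate number above each point and the mean ± SD beside each group (n = 4). The groups are apart for Per1, Per2, Cry2, Dbp and Bhlhe40 and overlap for Clock, Arntl, Cry1, Nr1d1 and Nr1d2.

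Clock and Arntl, the activating arm, did not pass the test. Clock, on chromosome 5 from 76209868 to 76304792 of GRCm38 (minus strand), was at 20.1, 28.4, 20.8 and 24.9 CPM in the WT and 21.2, 25.1, 19.8 and 23.6 CPM in the Cxcr2-/- mice. The groups interleaved, and the log2 fold change was -0.07 with a 95% interval from -0.35 to 0.21 (SE 0.13, edgeR adjusted p = 0.677). Arntl, on chromosome 7 from 113207465 to 113314126 (plus strand), was at 3.52, 4.88, 5.16 and 3.76 CPM in the WT mice and 2.35, 3.32, 4.75 and 3.72 CPM in the Cxcr2-/- mice. Its groups overlapped too, with the lowest value in Cxcr2-/- mouse 1. The log2 fold change of Arntl was -0.29, with an interval from -0.78 to 0.20 that leaves room for a fall of more than 1.5-fold (SE 0.23, edgeR adjusted p = 0.321).

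Both Per genes, which encode the part of the repressor that is made and destroyed each day, were lower in Cxcr2-/- neutrophils. Per1, on chromosome 11 from 69095217 to 69109960 (plus strand), was at 434.5, 520.8, 622.4 and 382.5 CPM in the WT mice and at 90.1, 66.3, 234.2 and 193.3 CPM in the Cxcr2-/- mice. The highest Cxcr2-/- mouse lay below the lowest WT mouse, and within the Cxcr2-/- group replicates 1 and 2 were low and replicates 3 and 4 higher. The mean was 3.36-fold lower (log2 fold change -1.75, SE 0.33, 95% interval -2.46 to -1.03, edgeR adjusted p = 9.59e-04). With the share of pairs outside genes as a covariate, the log2 fold change of Per1 was -1.27 and did not pass (edgeR adjusted p = 0.0925).

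Per2, on chromosome 1 from 91415982 to 91459324 (minus strand), was at 111.0, 130.4, 103.5 and 123.4 CPM in the WT mice and 67.6, 53.3, 57.4 and 45.2 CPM in the Cxcr2-/- mice. It was the tighter of the pair, with a coefficient of variation of 16.7% among the Cxcr2-/- mice where Per1 had 55.2%. The fall was 2.09-fold (log2 fold change -1.07, SE 0.12, edgeR adjusted p = 2.34e-05). Per2 passed in all 18 alternatives, with the highest adjusted p (0.00282) under the covariate for the share outside genes.

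The Cry genes encode the partners of the Per proteins in the repressor. Cry1, on chromosome 10 from 85131700 to 85185064 (minus strand), was at 49.5, 39.0, 41.9 and 42.3 CPM in the WT mice and 45.4, 40.3, 36.1 and 35.6 CPM in the Cxcr2-/- mice. These ranges overlap, and the log2 fold change of -0.13 had an interval from -0.37 to 0.10 (SE 0.11, edgeR adjusted p = 0.334), which does not reach the size seen for Per2. Cry2, on chromosome 2 from 92403646 to 92434043 (minus strand), was at 7.78, 10.3, 9.09 and 8.71 CPM in the WT mice and 5.31, 4.40, 7.65 and 6.76 CPM in the Cxcr2-/- mice. The groups did not overlap, but Cxcr2-/- mouse 3 came close to WT mouse 1. The log2 fold change of Cry2 was -0.57 (SE 0.18, edgeR adjusted p = 0.0200). That call did not hold without WT replicate 2 (adjusted p = 0.0530), without Cxcr2-/- replicate 1 (0.0516) or without Cxcr2-/- replicate 2 (0.0553), nor with a covariate for non-neutrophil markers (log2 fold change -0.39, adjusted p = 0.1005) or for the share outside genes (-0.29, adjusted p = 0.537).

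Nr1d1 and Nr1d2, the REV-ERB repressors of Arntl, had the lowest levels per length of the 10 genes and did not pass. Nr1d1, on chromosome 11 from 98767932 to 98775333 (minus strand), was at 0.398, 0.422, 0.428 and 0.463 CPM in the WT mice and 0.202, 0.332, 0.508 and 0.705 CPM in the Cxcr2-/- mice, from 8 to 29 counts per library. The WT mice were no further apart than counting alone would put them (chi-square 0.196 with 3 degrees of freedom), whereas the Cxcr2-/- mice lay on both sides of them (chi-square 13.0). The log2 fold change of Nr1d1 was 0.04 with an interval from -0.84 to 0.91, so a change of 1.5-fold either way was not detectable with this spread and these counts (SE 0.40, edgeR adjusted p = 0.948). Nr1d2, on chromosome 14 from 18204054 to 18239127 (minus strand), was at 2.43, 3.03, 3.02 and 1.16 CPM in the WT mice and 0.758, 0.775, 2.16 and 1.99 CPM in the Cxcr2-/- mice. WT mouse 4 fell among the Cxcr2-/- mice, of which replicates 3 and 4 were again the higher. Nr1d2 had a log2 fold change of -0.76, of the size seen for Dbp, but its interval ran from -1.61 to 0.09 (SE 0.39, edgeR adjusted p = 0.135). With the covariate for non-neutrophil markers it was -0.05 (adjusted p = 0.901), and with the covariate for the share outside genes -0.42 (adjusted p = 0.685).

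Dbp and Bhlhe40, both read out by the Clock-Arntl dimer, were lower. Dbp, on chromosome 7 from 45705088 to 45710203 (plus strand), was at 4.89, 3.48, 4.06 and 4.05 CPM in the WT mice and 2.07, 2.99, 2.31 and 2.38 CPM in the Cxcr2-/- mice. The groups were apart and about equally spread. The fall of Dbp was 1.69-fold (log2 fold change -0.76, SE 0.19, edgeR adjusted p = 0.00591) and passed in all 18 alternatives, with a highest adjusted p of 0.0489. Bhlhe40, on chromosome 6 from 108660629 to 108666925 (plus strand), was at 146.9, 151.4, 137.2 and 133.0 CPM in the WT mice and 117.2, 100.4, 121.3 and 113.8 CPM in the Cxcr2-/- mice. It had the smallest called fall of the 10 genes, 1.26-fold, and in WT the smallest spread of the called genes, 5.97% as a coefficient of variation (log2 fold change -0.33, SE 0.09, edgeR adjusted p = 0.0103). The Bhlhe40 call did not hold with the covariate for non-neutrophil markers (log2 fold change -0.24, adjusted p = 0.0783) or with that for the share outside genes (-0.40, adjusted p = 0.0867).

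Exons of some clock genes overlap those of a gene on the opposite strand in GENCODE M21, and the strand setting of the authors' counting is not given in the sources used here. Dbp shares 539 exon bases with Sphk2, a lipid kinase gene at 52.1 ± 3.60 CPM in the WT mice and 62.4 ± 7.24 CPM in the Cxcr2-/- libraries, which was higher where Dbp was lower (log2 fold change 0.26, edgeR adjusted p = 0.0498). Nr1d1 shares 263 exon bases with Thra, the thyroid hormone receptor alpha gene, which was at 14.5 ± 2.77 and 8.98 ± 1.97 CPM (log2 fold change -0.69, edgeR adjusted p = 0.00697). Cry2, Bhlhe40 and Arntl share 295, 118 and 33 exon bases with non-coding genes of 147, 40 and 16 counts over the 8 libraries. The values of these 5 genes are uncertain to that extent, while Per1, Per2, Cry1, Clock and Nr1d2 share no exon base with another gene of the annotation.

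Levels of different genes were compared per length, as CPM per kb of the exons that GENCODE M21 gives a gene. In WT neutrophils the order was Per1 at 87.0, Bhlhe40 at 30.2, Per2 at 19.99, Cry1 at 12.9, Clock at 1.72, Cry2 at 1.42, Dbp at 1.38, Arntl at 0.575, Nr1d2 at 0.446 and Nr1d1 at 0.139 CPM per kb. Neighbours whose WT ranges overlapped were Clock and Cry2, Cry2 and Dbp, and Arntl and Nr1d2. The Per1 level per kb was above that of 97.3% of the 16545 tested genes with a length, and the Nr1d1 level above that of 6.79%. The activators Clock and Arntl were above 45.6% and 25.0% of the tested genes. The repressors lay on both sides of them, Per1, Per2, Cry1 and Bhlhe40 above 82.4% or more, Cry2 above 41.8% and Nr1d2 above 20.9%. In Cxcr2-/- neutrophils Per1, at 25.9 CPM per kb, no longer stood apart from Bhlhe40 at 24.0, and the ranges of Per2 (mean 9.55) and Cry1 (mean 11.8) overlapped as well. Per1 made up 50.2% to 63.0% of the summed CPM per kb of the 10 genes in the WT mice and 20.1% to 44.9% in the Cxcr2-/- mice, while the share of Bhlhe40 was 16.6% to 21.2% and 27.8% to 36.5%.

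**Figure D2:**
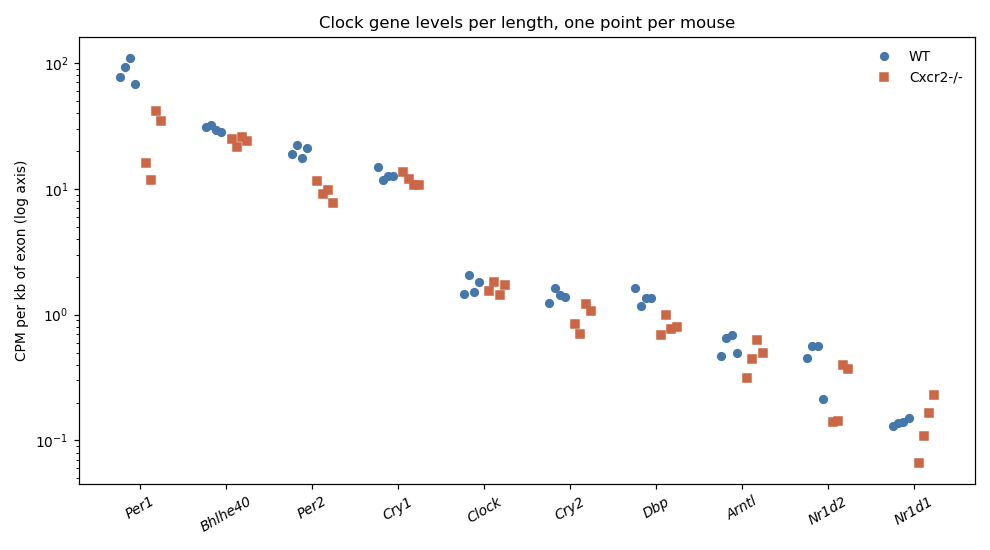
Level of each clock gene in CPM per kb of exon (log axis), 1 point per mouse, WT as blue circles and Cxcr2-/- as orange squares, ordered by the WT mean. Per1 stands above every other gene in WT (mean 87.0) and meets Bhlhe40 in Cxcr2-/- neutrophils (25.9 and 24.0), and Nr1d1 is lowest in WT (0.139).

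Ratios within a mouse were used to ask whether members of a pair moved unequally, on the scale log2 of (CPM + 0.1). The 5 ratios compared were Per1 to Per2, Cry1 to Cry2, Nr1d1 to Nr1d2, Clock to Arntl and Dbp to Arntl, each by a two-sided exact permutation test of 4 mice against 4, which cannot go below p = 0.0286. None passed. The log2 ratio of Per1 to Per2 was 1.97, 1.997, 2.59 and 1.63 in WT and 0.41, 0.32, 2.03 and 2.09 in Cxcr2-/- mice, so that Cxcr2-/- mice 1 and 2 lay far below the WT mice and mice 3 and 4 among them (difference -0.83, exact permutation p = 0.286, adjusted 0.357). The log2 ratio of Cry1 to Cry2 differed by 0.46 (exact permutation p = 0.171, adjusted 0.357) and that of Clock to Arntl by 0.25 (exact permutation p = 0.429, adjusted 0.429). For Nr1d1 to Nr1d2 the difference was 0.71 (exact permutation p = 0.114, adjusted 0.357) and for Dbp to Arntl -0.43 (exact permutation p = 0.257, adjusted 0.357). An unequal change of these pairs was therefore not shown, and neither was an equal one.

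The other genes of the pathway were taken from 7 lists of partners, 40 genes in all, of which 35 were tested. The filter on low counts left out the other 5, Npas2, Arntl2, Rorb and Prkaa2 among them. Of the 35, 9 were higher, 13 lower and 13 did not pass (edgeR), with a median log2 fold change of -0.11, so that 25.7% were higher and 37.1% lower against 23.7% and 21% of all genes tested. With the covariate for the share of pairs outside genes, 9 of these 22 calls held, among them Ciart, Csnk1d, Csnk1e, Csnk2a1, Kat2b, Wee1, Noct and Klf10. The 13 lost were Usp2 (log2 fold change 1.33, edgeR adjusted p = 0.0865), Ncor1 (-0.58, 0.0508), Hdac3 (0.37, 0.194), Nfil3 (0.33, 0.237), Csnk2b, Csnk2a2, Gsk3b, Btrc, Fbxw7, Fbxw11, Sirt1, Kmt2a and Nampt. In the list of relatives and other repressors of the loop, 4 were tested and 1 was lower. Ciart was at 5.28, 5.93, 8.15 and 6.16 CPM in the WT mice and 0.834, 1.05, 1.65 and 1.97 CPM in the Cxcr2-/- mice. This was the largest fall among the 35 (log2 fold change -2.21, SE 0.27, edgeR adjusted p = 3.24e-05), with the 2 groups far apart. Per3, the third Per gene, was at 4.32 ± 0.66 and 3.45 ± 0.45 CPM (log2 fold change -0.33, edgeR adjusted p = 0.156), and Bhlhe41 and Cipc did not pass either.

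The enzymes that set the life of the Per and Cry proteins moved both ways, as did the genes tested as a whole (21% lower and 23.7% higher). Of 8 kinase genes tested, 3 were lower and 3 higher. The casein kinase 1 genes Csnk1d and Csnk1e, whose products mark Per proteins for destruction, were at 219.5 ± 21.2 and 121 ± 17.0 CPM in the WT mice and 137 ± 8.47 and 62.6 ± 12.6 CPM in the Cxcr2-/- mice (log2 fold changes -0.68 and -0.95, edgeR adjusted p = 1.08e-04 and 1.95e-04). The 3 casein kinase 2 subunit genes were all higher, with Csnk2b at 44.8 ± 6.34 and 76.2 ± 6.46 CPM (log2 fold change 0.77, edgeR adjusted p = 1.27e-04), Csnk2a1 at 0.44 and Csnk2a2 at 0.37 on the log2 scale. Gsk3b, which phosphorylates several clock proteins, had a log2 fold change of -0.29 (edgeR adjusted p = 0.0207), a call lost without WT replicate 4 (adjusted p = 0.0699) or Cxcr2-/- replicate 3 (0.0647).

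Of 6 genes for ubiquitin enzymes, 3 were lower and 2 higher, against 21% and 23.7% of all genes tested. Usp2, a deubiquitinase and itself a known target of the clock, rose from 2.83 ± 0.33 to 9.66 ± 3.51 CPM, the largest rise among the 35 partners (log2 fold change 1.77, edgeR adjusted p = 1.55e-04). Usp2 was at 12.9, 10.6, 10.4 and 4.67 CPM in Cxcr2-/- mice 1 to 4, and its call was lost with the covariate given above. Dbp and Per2, also known targets of the Clock-Arntl dimer, were lower. The cause of this difference in direction was not tested. Fbxw11 was higher by 0.40, and Btrc (-0.38) and Fbxw7 (-0.29) were lower, on the log2 scale. The Btrc call (edgeR adjusted p = 0.0389) was lost without any 1 of WT replicates 1, 3 and 4 and Cxcr2-/- replicates 1, 3 and 4 (adjusted p from 0.0502 to 0.125) and with no filter on low counts (0.0625). Among 6 coregulators, 3 were lower, against 21% of all genes tested. They were the deacetylase gene Sirt1 at -0.68, the acetyltransferase gene Kat2b at -0.60 and the methyltransferase gene Kmt2a at -0.52 on the log2 scale (edgeR adjusted p = 1.70e-04, 1.64e-04 and 0.00473). Crebbp, Ep300 and Kdm5a, the other 3 coregulators, had log2 fold changes from -0.11 to 0.04 and did not pass.

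Of the genes through which REV-ERB and ROR act, the corepressor gene Ncor1 was lower (log2 fold change -0.51, edgeR adjusted p = 0.00254) and its deacetylase partner Hdac3 higher (0.62, edgeR adjusted p = 0.00108). Rora was at 0.364 ± 0.306 and 0.218 ± 0.216 CPM and did not pass (edgeR adjusted p = 0.465). In the family of Dbp, Nfil3, the repressor at the D-boxes that Dbp activates, was at 84.7 ± 8.09 CPM in the WT mice and 109 ± 13.0 CPM in the Cxcr2-/- mice (log2 fold change 0.36, edgeR adjusted p = 0.0143), while Tef and Hlf did not pass (-0.23 and 0.37). The Nfil3 call was lost without WT replicate 2 or 4, without Cxcr2-/- replicate 3 or 4, and under 2 other scalings of library size (adjusted p from 0.0502 to 0.0819), besides the loss with the covariate given above.

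Among 5 output genes of the clock, 2 were higher, 2 lower and 1 did not pass, where 23.7% of all genes tested were higher and 21% lower. Wee1, which holds cells back from mitosis, rose from 3.37 ± 0.66 to 8.50 ± 0.74 CPM (log2 fold change 1.33, edgeR adjusted p = 5.08e-05). Noct, the nocturnin gene, rose from 22.0 ± 2.67 to 39.6 ± 4.54 CPM (0.84, edgeR adjusted p = 7.79e-05). Klf10 fell from 152 ± 21.8 to 67.9 ± 3.67 CPM (log2 fold change -1.16, edgeR adjusted p = 4.75e-06). Nampt, an enzyme of NAD synthesis, had a log2 fold change of -0.39 (edgeR adjusted p = 0.0230), lost without WT replicate 1 (adjusted p = 0.0778) or 4 (0.0603) and without Cxcr2-/- replicate 3 (0.0717) or 4 (0.0505). The clock outputs, then, did not share a direction.

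**Figure D3:**
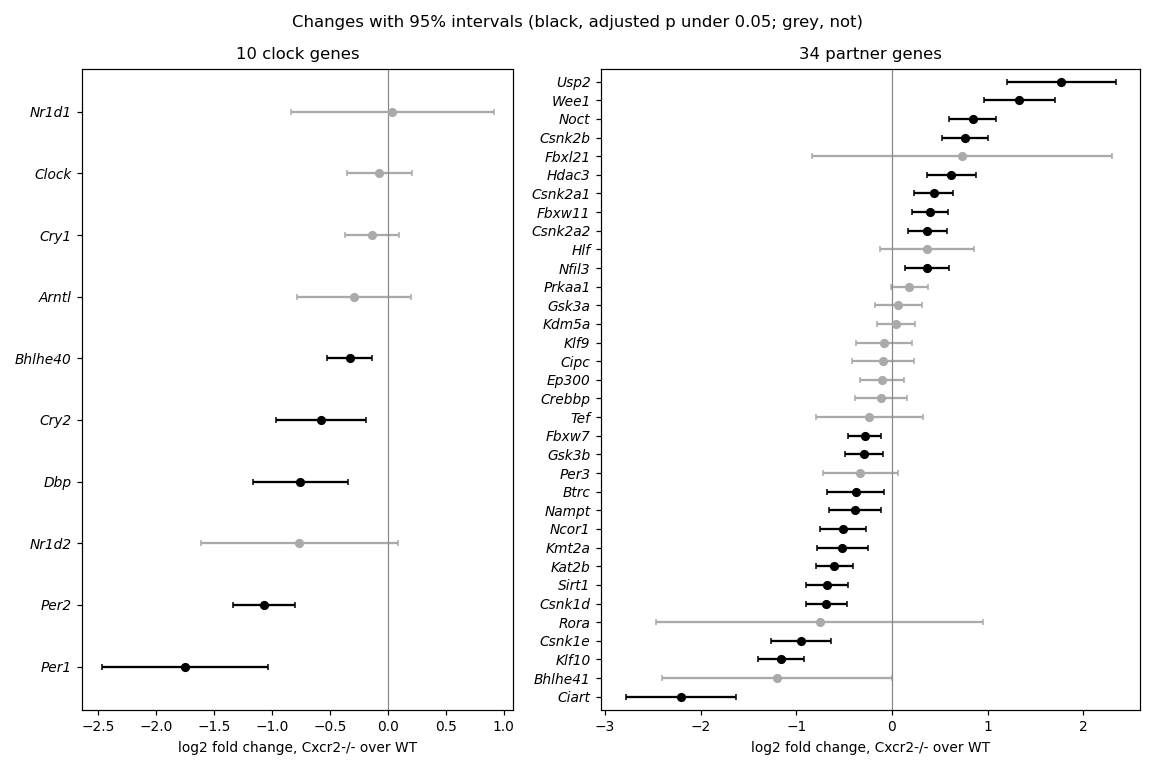
Log2 fold changes, Cxcr2-/- over WT, with 95% intervals, for the 10 clock genes (left) and 34 of the 35 partner genes tested (right), black where the adjusted p was under 0.05 and grey where it was not. On the left the black intervals lie below 0, from Per1 (-1.75) to Bhlhe40 (-0.33), and on the right black intervals lie on both sides, from Ciart (-2.21) to Usp2 (1.77).

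Other sets were measured beside the clock genes because Per1 is known to respond to them. Of 17 immediate early genes, a set that includes Per1, 15 were lower and the other 2 did not pass, where 21% of all genes tested were lower. Fos, a gene raised within minutes of a signal, was at 2794 ± 163 CPM in the WT mice and 397 ± 170 CPM in the Cxcr2-/- mice (log2 fold change -2.82, edgeR adjusted p = 4.93e-06). Without Per1 the set had 14 of 16 lower, a median log2 fold change of -2.25, and a sum of 13704 to 15054 CPM in the WT and 2379 to 4570 CPM in the Cxcr2-/- mice. The whole set summed to 3182, 2445, 4804 and 4228 CPM in Cxcr2-/- replicates 1 to 4, with replicates 3 and 4 higher. Of the 10 clock genes, 5 had both of those replicates above the other two (Per1, Cry2, Arntl, Nr1d1 and Nr1d2), 1 had both below (Cry1) and 4 had neither order. The order was not particular to the immediate early set. Sums of primary granule genes, B cell markers and erythroid and megakaryocyte markers had it too. The T and NK cell sum, most of it the single gene Cd3d, had the opposite one. The share of all genes with this order was not counted. Of 8 genes known to respond to glucocorticoids, among them Per1 and, shared with the immediate early set, Dusp1, 5 were lower and 1 higher. The other 2 did not pass, and the median log2 fold change of the 8 was -1.10. Among all genes tested 21% were lower and 23.7% higher. Tsc22d3 (also called Gilz), 1 of the 5, fell from 659 ± 107 to 166 ± 17.3 CPM (log2 fold change -1.99, edgeR adjusted p = 3.03e-07). Fkbp5, the only one called higher, rose from 59.0 ± 6.79 to 73.2 ± 6.73 CPM (0.31, edgeR adjusted p = 0.0249). Fos, Tsc22d3 and Fkbp5 were singled out after their values were seen. The part of these signals in the values of Per1 was not tested.

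**Figure D4:**
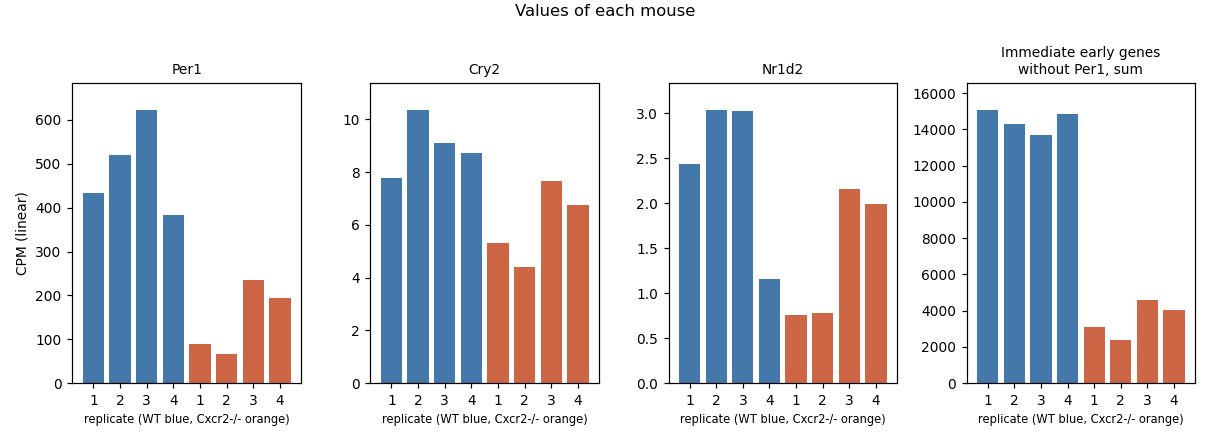
CPM (linear axes from 0) in each mouse for Per1, Cry2, Nr1d2 and the sum of 16 immediate early genes without Per1, WT in blue and Cxcr2-/- in orange, by replicate number. The genes were drawn for their order among the Cxcr2-/- mice, in which replicates 3 and 4 are above replicates 1 and 2, an order that 5 of the 10 clock genes have, and only in the Nr1d2 panel do the groups overlap.

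Of 6 surface markers by which aged and fresh neutrophils are told apart, 4 were lower (Cxcr2 itself among them) and 1 higher. Among all genes tested 21% were lower and 23.7% higher. Cxcr4, high on aged cells, was at 646 ± 76.3 CPM in the WT mice and at 351 ± 39.0 CPM in the Cxcr2-/- mice (log2 fold change -0.88, edgeR adjusted p = 7.02e-05). By flow cytometry, which reads surface protein, the paper reported the other direction. Cxcr4+ cells and aged cells were a larger percentage of spleen neutrophils in its Cxcr2-/- mice. The paper ties Cxcr4 to immature neutrophils as well as to aged ones. RNA and surface protein are unlike measures, so the Cxcr4 RNA value counts neither aged nor immature cells. The 1 marker that was higher, Cd47, the signal that keeps macrophages from taking up a cell, was at 399.8 ± 16.4 and 628 ± 41.0 CPM (log2 fold change 0.65, edgeR adjusted p = 1.10e-04).

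Markers of cell stage moved with the genotype beside all the changes above. The 5 primary granule genes, made by early neutrophil precursors, were all higher and summed to 4.37 to 17.3 CPM in the WT mice and to 70.5, 71.8, 236 and 386 CPM in Cxcr2-/- replicates 1 to 4. The 5 proliferation genes were all higher as well (262 to 312 and 829 to 930 CPM). Among all genes tested 23.7% were higher and 21% lower, the shares to set beside every count in this paragraph. Of the 34 markers of other spleen cells, 25 were tested, with 3 higher and 10 lower, and no marker was at 0 in every library. B cell markers summed to 68.5 to 150 CPM in the WT mice and 37.5 to 77.6 CPM in the Cxcr2-/- libraries, with 4 of 6 lower, and monocyte and macrophage markers to 689 to 808 and 835 to 929 CPM, with 2 of 6 lower and 1 higher. T and NK cell markers summed to 97.5 to 118 and 91.0 to 139 CPM (1 of 4 lower), dendritic cell markers to 4.77 to 23.6 and 3.24 to 5.91 CPM (1 of 2 lower), eosinophil and basophil markers to 38.8 to 56.0 and 34.9 to 56.9 CPM (2 of 3 higher, 1 lower), and erythroid and megakaryocyte markers to 6.19 to 9.75 and 4.10 to 14.2 CPM (1 of 4 lower). The share called lower was 25% for T and NK cell markers and for erythroid and megakaryocyte markers, near the 21% of all genes tested. Some sums rest on few genes. In the monocyte and macrophage sum Ly6c2 rose from 239 ± 35.1 to 627 ± 38.4 CPM, while Csf1r (442 to 232 CPM) and Adgre1 (30.6 to 12.3 CPM) fell. Most of the T and NK cell sum was Cd3d, at 99.1 ± 13.6 CPM in the WT mice and 108 ± 21.6 CPM in the Cxcr2-/- mice. The other Cd3 genes listed were far lower, Cd3e at 0.206 and 0.0935 CPM and Cd3g at 0.937 and 0.753 CPM (WT and Cxcr2-/- means). The sum therefore does not measure T and NK cell content. The covariate for non-neutrophil markers took the B cell, T and NK cell, monocyte and macrophage, dendritic, and erythroid and megakaryocyte lists. The eosinophil and basophil markers were not in it. With this covariate, Per1 (-1.33), Per2 (-1.13) and Dbp (-0.83) still passed as lower. The part of neutrophil stage in the clock gene values was not tested, since stage markers and genotype cannot be told apart in these 8 mice.

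Within the groups, some clock genes moved together from mouse to mouse and others did not. Over the 45 pairs of the 10 genes, correlations of the deviations from the group mean, on log2 of (CPM + 1) in 8 libraries, ranged from -0.85 to 0.91 with a median of -0.03, and 22 were positive. The 10 pairs among Per1, Cry2, Arntl, Nr1d1 and Nr1d2, the genes that were higher in Cxcr2-/- replicates 3 and 4 and singled out after that was seen, were all positive, from 0.58 to 0.91. Among the Cxcr2-/- mice alone they ran from 0.69 to 0.99, a sign that follows in part from that choice. Among the WT mice alone they ran from -0.72 (Nr1d1 and Nr1d2) to 0.90 (Per1 and Arntl), with Per1 and Nr1d1 at -0.31. Over the 8 libraries Per1 and Per2 had a correlation of -0.36. Among the 6879 genes at 10 CPM or more on average, those whose deviations were most like those of Per1 were Sar1a (r = 0.99), Lrrc59 (r = 0.98) and Plk3 (r = 0.98), and 111 genes were over 0.9. Plk3, itself an early response gene, was also lower in Cxcr2-/- neutrophils (log2 fold change -1.81, edgeR adjusted p = 2.56e-05), while Sar1a and Lrrc59 did not pass. For Arntl the nearest were Mdc1 (r = 0.95), Hnrnpa3 (r = 0.94) and Atl2 (r = 0.94), with 27 genes over 0.9. All these points share the same 8 libraries, their depth and their composition.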

How the data were processed

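Spleen neutrophils of 4 WT and 4 Cxcr2-/- mice were sorted after selection for CD11b. The authors trimmed the 150-base paired reads, dropped those under 120 bases, used STAR to align the rest to mm10 and HTSeq to count pairs per gene, and deposited the whole-number counts of each library, not normalized. Versions, annotation and strand setting of the counting are not given in the sources used here. The submitters' processing notes name FastQC, HTSeq and mm10. Of the 55414 gene identifiers, 52081 matched GENCODE M21 (GRCm38), 52044 of them with a later version number in the files, so positions and exon lengths come from an older annotation than the counting. Unmatched identifiers held 1.43% of the counts. HTSeq's own totals named no gene and stayed out of the library sizes. Pairs that met no gene were 26.7% to 41.5% of all pairs. No column of another series was present.

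The counts were tested in R 4.3.3 with edgeR 4.0.16 (quasi-likelihood test, TMM, filterByExpr, Benjamini-Hochberg over 16778 genes), and a gene was called at an adjusted p under 0.05. The study used DESeq2, which was run as an alternative (1.42.0). The SE is the log2 fold change divided by the root of F, and intervals are at 95%. The biological coefficient of variation was 0.202. The edgeR test was tried on simulated counts, and the exact permutation test and the Benjamini-Hochberg adjustment on small made-up values. The other steps were not tested on simulated data. Every pair of replicates of a group differed beyond sampling noise (chi-square per gene 23.9 to 99.0). Ratios were compared by exact permutation tests in scipy 1.17.1. Groups came from the labels, with 1 library per mouse. The clock genes and all lists were chosen with earlier results of these data known. The genes named were the 10 clock genes, in each partner list the 3 largest changes that passed and genes that a count of 3 or fewer refers to, Cxcr2, Cxcr4, and the 3 genes most like Per1 and Arntl. Sphk2, Thra, Cd47, Csf3r, S100a8, S100a9, Itgam, Ly6c2, Csf1r, Adgre1, Cd3d, Cd3e and Cd3g were added after their values were seen. Alternatives were RLE, upper-quartile and total-count scaling, DESeq2, no filter, at least 10 counts in every library, a replicate block, covariates for non-neutrophil markers and for the share of pairs outside genes, a 1.5-fold threshold, a pseudocount of 1 for the ratios, each library left out in turn and, chosen after seeing the data, protein-coding genes only. Some genes that fall under the rule for names are not reported here, and the counts of their lists include them.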

Additional observations from a re-analysis of the deposited data

Results flagged for a closer look

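One value stood far from the others of its group. The log2 ratio of Nr1d1 to Nr1d2 was -2.35, -2.59 and -2.56 in WT replicates 1 to 3 and -1.16 in WT replicate 4, a gap of 0.832 of the group's range, just over the 95% critical value of Dixon's test for 4 samples. WT replicate 4 had the lowest Nr1d2 level of the WT mice (1.16 CPM) and an Nr1d1 level (0.463 CPM) near theirs. In all, 30 groups of values were checked in this way, and chance marks about 1 in 20.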

How the results depend on the processing

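Nr1d1 rests on 8 to 29 counts per library. Of 179 refits of single clock genes, 162 kept direction and side of the threshold, 8 lost a call and 9 turned a direction, each of the 9 in a gene not called (Clock, Arntl or Nr1d1). The covariate for the share of pairs outside genes had the widest effect: genes called went from 3969 higher and 3526 lower to 1597 and 1486, clock genes lower from 5 to 2 (Per2 and Dbp), and partners from 9 higher and 13 lower to 3 and 6, and Clock went to 0.17 and Arntl to 0.22 on the log2 scale. That covariate takes up a share of the genotype difference by construction, since the share moved with genotype. The covariate for non-neutrophil markers left 3 clock genes lower. A 1.5-fold threshold left 2628 genes higher, 3 clock genes lower, and 5 partners higher and 6 lower. Nr1d1 turned to -0.076 with upper-quartile scaling, -0.032 with total counts, -0.077 with the replicate block and -0.028 over protein-coding genes. Without 1 library at a time, Nr1d1 ranged from -0.31 to 0.28 and Clock from -0.14 to 0.01 (0.011 without WT replicate 2), and 4 to 5 clock genes were lower. Upper-quartile scaling moved the median of all genes from 0.01 to -0.11 and the split of calls to 3076 higher and 4391 lower, with the same number of clock genes (5) lower. The causes of the other shifts were not tested. The same-numbered mice of the groups are different animals and deviated together in no regular way (correlations 0.15, -0.19, 0.24 and -0.31). The replicate block gave 3719 genes higher and 3349 lower and 5 clock genes lower, and over the clock genes and the partners that passed it changed only the call of Btrc. No ratio passed with a pseudocount of 1, and with a library left out the exact test cannot go below p = 0.0571, so those runs bear on size only.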
